A study of Homo sapiens with 29 samples.

Results

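The position of elongating Pol II was compared between THOC5-depleted and control cells 40 min after release from DRB, the latest time of the series, in 1745 of the 4592 genes that the deposited tables list. A gene was taken when its coverage reached 100 rpm in both tables. Its 40-min wave peak also had to lie short of the gene end and the window end at 120 kb in both, with no lower limit. The genes were therefore selected on measured values, including the 40-min positions themselves, and the lags and leads below describe these libraries. HEK293, an established human embryonic kidney line, had received a control hairpin (shCtrl) or a hairpin against THOC5 (shTHOC5) by lentivirus 4 days earlier. All cells of both groups were held in 100 μM DRB for 3.5 h, the drug was washed out, and RNA made during a 10 min pulse of 1 mM 4SU was sequenced 10, 20, 30 or 40 min after the release. Each condition and time had 1 library, 8 in all, so there is no replicate error, no test is given, and a difference between conditions cannot be told apart from a difference between 2 cultures. The labels of these libraries do not say which hairpin sequence against THOC5 was used, and THOC5 is not listed in the tables, so its depletion was not checked here.

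DRB inhibits CDK9, the kinase that frees Pol II from its pause close to the promoter. While the drug is present, Pol II collects near the transcription start site (TSS), and after washout it enters the gene as a wave whose crest can be followed in newly made RNA. THOC5 is a subunit of the THO complex, which together with the export factors forms TREX, a complex known for packaging nascent mRNA and handing it to the nuclear export machinery. The wave peak is the position of that crest, given here in kb from the TSS listed for the gene. Differences are THOC5-depleted minus control, so that a negative value is a lag of the depleted cells behind control and a positive value a lead. The window began 2 kb in front of the TSS, so that -2.0 kb stands for a wave peak called at the window's first base.

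What a lag or a lead means on the chromosome is shown by the sequences around the called positions in 3 genes. DUSP16, a phosphatase of MAP kinases, and STK24, a protein kinase, had the largest lags, and PIAS2, a SUMO ligase, one of the largest leads, among genes whose wave peaks followed the release times in both series and whose listed width equals that in GENCODE release 44. Each line gives 81 bases of GRCh38, read 5′ to 3′ on the minus strand, which is the coding strand of all 3 genes, and the capital marks the called base.
DUSP16, control cells, chr12:12486279-12486359: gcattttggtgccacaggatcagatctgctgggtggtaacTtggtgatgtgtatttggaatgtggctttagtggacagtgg
DUSP16, THOC5-depleted cells, chr12:12556931-12557011: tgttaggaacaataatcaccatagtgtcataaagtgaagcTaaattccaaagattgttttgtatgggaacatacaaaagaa
STK24, control cells, chr13:98504091-98504171: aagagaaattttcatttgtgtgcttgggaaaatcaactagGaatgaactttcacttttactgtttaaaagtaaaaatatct
STK24, THOC5-depleted cells, chr13:98566899-98566979: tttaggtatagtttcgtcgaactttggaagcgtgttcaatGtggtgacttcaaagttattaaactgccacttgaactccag
PIAS2, control cells, chr18:46908265-46908345: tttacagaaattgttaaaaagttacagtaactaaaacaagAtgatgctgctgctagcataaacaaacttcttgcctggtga
PIAS2, THOC5-depleted cells, chr18:46873769-46873849: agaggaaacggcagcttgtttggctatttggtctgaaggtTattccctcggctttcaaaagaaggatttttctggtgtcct
In DUSP16 the control position lay in intron 5 of 6 and the position of THOC5-depleted cells in intron 1, while in STK24 they lay in intron 2 and intron 1 of 10. In PIAS2 the order was opposite, with intron 1 of 13 in control cells and intron 2 in THOC5-depleted cells. T, the base that can carry the 4SU label in RNA, took 27 and 22 of the 81 bases at the 2 positions of DUSP16, 29 and 28 in STK24, and 23 and 28 in PIAS2. A wave peak is the crest of a broad profile of coverage, so a single base is a nominal centre and not a mapped end of a transcript.

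Over the 1745 genes the median 40-min wave peak lay 9.41 kb from the TSS in control cells and 7.92 kb from it after THOC5 depletion, with 25th to 75th percentiles of 5.09 to 23.3 kb and 4.58 to 15.3 kb. Gene by gene the difference had a median of -0.471 kb, a 25th percentile of -3.146 kb and a 75th percentile of 0.677 kb. THOC5-depleted cells were behind, with the wave peak nearer the TSS, in 975 genes (55.9%), level in 201 and ahead in 569 (32.6%). Among all 4592 listed genes the shares were 49.1% nearer and 35.5% farther. A lag of more than 5 kb was found in 313 genes and a lead of more than 5 kb in 168, that is 17.9% and 9.63%, beside 24.5% and 18.1% of all listed genes. Beyond 20 kb there were 143 lags and 71 leads, beside 15.1% and 10.5% of all listed genes. With the same limits on position but no coverage minimum, 23.7% of 3411 genes lagged and 15.9% led by over 5 kb. With the coverage minimum but no limit at the gene end the shares were 17.9% and 10.0% of 2075 genes. The cause of the lower shares among the 1745 genes was not tested, and nothing is read from those pairs of shares. In most genes the series stood close together, and the 2 positions were within 1.0 kb of each other in 583 genes (33.4%), within 2.0 kb in 863 (49.5%) and within 5.0 kb in 1264 (72.4%). The differences ranged from -103.85 to 107.487 kb, with a mean of -2.193 kb and an SD over genes of 17.606 kb.

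**Figure D1:**
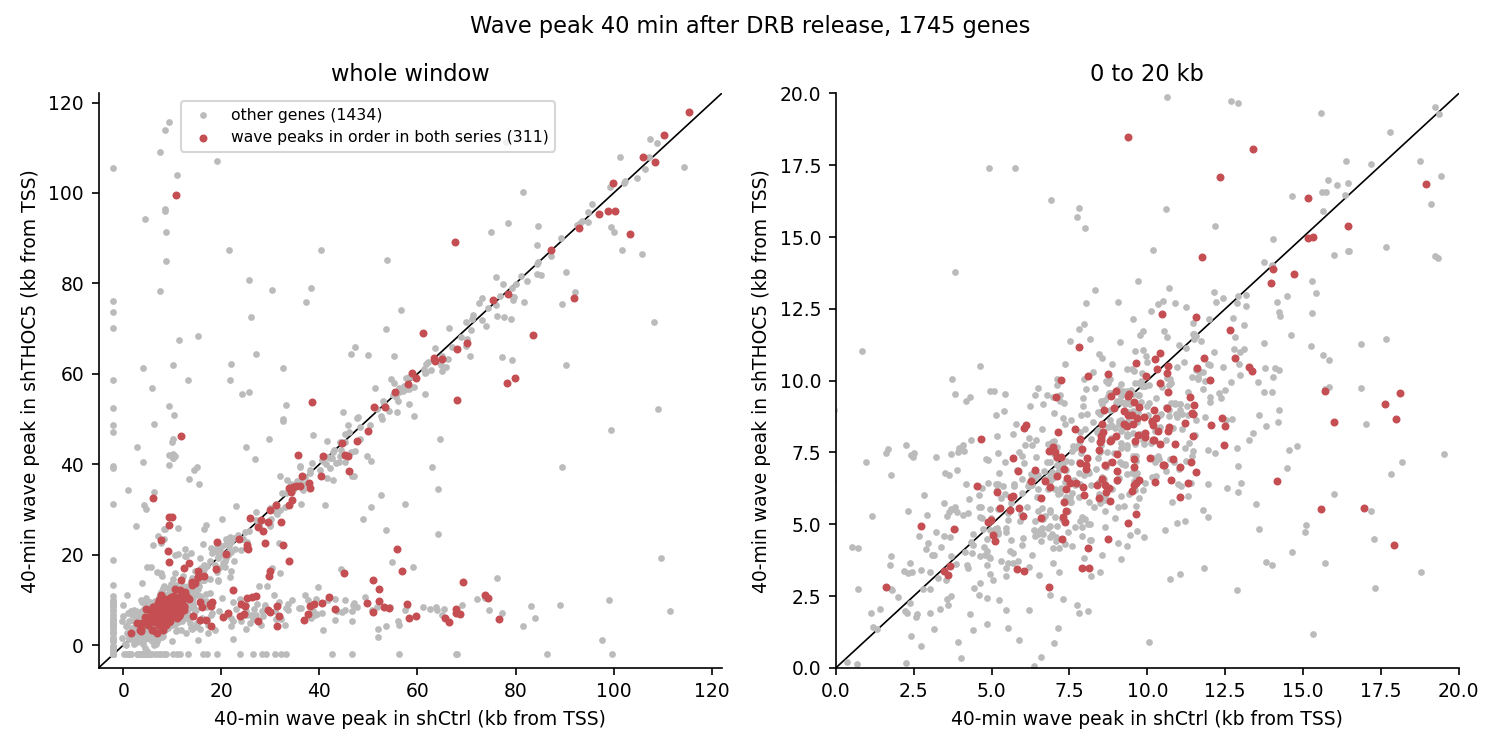
Each point is 1 of the 1745 genes, placed by its 40-min wave peak in control cells (shCtrl, horizontal axis, kb from the TSS) and in THOC5-depleted cells (shTHOC5, vertical axis, kb from the TSS), over the whole window on the left and over 0 to 20 kb on the right, with the black line at equal positions and the 311 genes whose wave peaks were in order at all times in both series in red. Of these 311 genes 234 lie below the line, and a horizontal band of genes below 20 kb in THOC5-depleted cells extends to the right.

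The 201 genes at equal positions were all genes without a called wave, placed at the window's first base in both. The wave peak was called at or upstream of the TSS at 40 min in 262 genes in control cells and in 259 in THOC5-depleted cells, 206 of them shared. Leaving out every gene called there in either series left 1430 genes, in which 922 wave peaks (64.5%) were nearer the TSS in THOC5-depleted cells, 508 were farther and the median difference was -1.063 kb. These shifts were small beside the positions themselves. When both wave peaks lay between the TSS and 20 kb, which held for 902 genes, the median positions were 8.61 kb in control cells against 7.37 kb after depletion, 595 genes (66.0%) lagged, 307 led, and the median difference was -0.847 kb. When both lay beyond 20 kb, which held for 303 genes, 170 lagged, 133 led and the median was -0.412 kb.

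Most of the largest differences were found in genes with the wave peak far from the TSS in 1 series and near it in the other. In 157 genes it was beyond 20 kb in control cells and within 20 kb in THOC5-depleted cells, with median positions of 38.3 and 8.31 kb. The opposite arrangement was found in 68 genes, at 9.95 and 37.8 kb. Genes of the first kind made up 113 of the 143 lags over 20 kb and 149 of the 313 over 5 kb, and genes of the second kind 42 of the 71 leads over 20 kb and 60 of the 168 over 5 kb. Wave peaks that both lie between the TSS and 20 kb cannot differ by over 20 kb. The counts beyond 20 kb therefore follow in part from the limits chosen. Many of the large gaps opened in the last interval. From 30 to 40 min the control wave peak moved downstream by over 20 kb in 94 of the 313 lagging genes and the wave peak of THOC5-depleted cells did so in 11, while among the 168 leading genes such a step was found in 5 and in 72. Over all 1745 genes it was found in 115 in control cells and in 118 after depletion. Both groups were picked on the 40-min positions, which favours a large last step in the series that is ahead. The counts of steps are therefore not read as a result. In 110 of the lagging genes the control wave peak had been over 20 kb out already at 30 min. The median width of the lagging genes was 111 kb and that of the leading genes 116 kb.

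Wave peaks called at separate times do not have to follow each other, and order alone does not show a moving wave. The wave peak moved downstream at every step in both series in 311 of the 1745 genes. The single series differed in this respect, with 393 of the 1745 in order in control cells against 874 after depletion. From 30 to 40 min the step was over 20 kb in 34 of the 311 genes in control cells and in 15 after depletion. The median steps of the 311 genes were 2.27 and 1.65 kb. Over all 1745 genes a step of over 20 kb was about equally frequent, in 115 genes (6.59%) in control cells and in 118 (6.76%) after depletion. In the 311 genes the median position was 2.38, 6.43, 8.37 and 11.3 kb at 10, 20, 30 and 40 min in control cells and -2.0, 4.61, 6.63 and 8.70 kb after depletion. At 40 min 234 of them (75.2%) lagged and 77 led, with a median of -1.60 kb and 25th and 75th percentiles of -4.246 and -0.041 kb. Lags over 5 kb numbered 68 and leads over 5 kb 13, and over 20 kb the numbers were 37 and 4. Across the 4 times, in order, the median difference in these genes was -1.345, -1.276, -1.417 and -1.60 kb, while the mean was -1.739, -1.622, -2.77 and -5.847 kb. From gene to gene the difference became more negative from 30 to 40 min in 176 of the 311 and less negative in 135. Over all 1745 genes the order was opposite, with 670 more negative and 889 less negative.

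The 10 largest lags among the genes in order shared a course, in which the control wave peak made 1 step of over 20 kb. DUSP16 stood at -2.0, 5.58, 8.01 and 76.5 kb in control cells and at -0.635, 3.16, 5.59 and 5.89 kb in THOC5-depleted cells, a difference of -70.65 kb at 40 min. STK24 stood at 5.97, 10.0, 11 and 73.8 kb in control and at 1.99, 7.31, 9.09 and 11 kb in THOC5-depleted cells, a difference of -62.81 kb. In both genes the series were within 5 kb of each other up to 30 min and the gap opened with the last control position. SPSB1, an adaptor of a ubiquitin ligase, stood at 2.85, 7.96, 8.54 and 68.7 kb against -0.569, 4.62, 6.25 and 6.91 kb. ARHGAP35, a GTPase-activating protein, stood at 2.04, 4.18, 5.99 and 66.4 kb against -2.0, 1.73, 4.80 and 5.20 kb, so that in it too the last control position alone was far out. B4GALT5, a galactosyltransferase of glycolipid synthesis, stood at 2.10, 7.02, 8.62 and 67.8 kb against -2.0, 3.80, 6.02 and 7.18 kb. In PTPN4, a tyrosine phosphatase, and UBTD2, a ubiquitin-like domain protein, the control wave peak likewise went from 2.38 to 65.6 kb and from 8.22 to 59.8 kb in the last 10 min. PALD1, NF2 and SNX25 had made their step earlier. NF2, which encodes the tumour suppressor merlin, stood at 1.74, 5.10, 67.8 and 67.9 kb in control cells against -2.0, 0.812, 4.25 and 7.90 kb after depletion. PALD1 stood at 64.3 against 2.98 kb at 30 min and SNX25, a sorting nexin, at 58.4 against 13.5 kb. Before the gap opened PTPN4 was ahead, by 2.15 and 3.56 kb at 20 and 30 min, and the other genes with a late step were behind at both of these times. All 10 genes thus had 40-min wave peaks between 59.8 and 76.5 kb in control cells and at 14.0 kb or less in THOC5-depleted cells.

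Leads were fewer and, apart from CLIP1, smaller, and in 7 of the 10 largest THOC5-depleted cells were not yet ahead at 30 min. CLIP1, which encodes a protein of growing microtubule ends, stood at -2.0, 8.76, 9.27 and 10.7 kb in control cells and at -2.0, 1.90, 3.66 and 99.6 kb in THOC5-depleted cells, so that its difference was -6.87 kb at 20 min but 88.89 kb at 40 min. PIAS2 stood at 3.83, 7.36, 9.80 and 11.9 kb in control and at 4.33, 6.09, 7.70 and 46.4 kb in THOC5-depleted cells. TTLL11, which adds glutamate chains to tubulin, led by 26.52 kb at 40 min after a difference of -0.49 kb at 30 min, and HIPK3, a protein kinase, by 18.28 kb after -0.10 kb. CABLES1, an adaptor of cyclin-dependent kinase signalling, was far out in both series, at 67.7 kb in control cells against 89.3 kb after depletion. RAD18, the ubiquitin ligase that marks PCNA at stalled replication forks, was the only one of these 10 genes that led at all 4 times, by 2.3, 2.48, 3.82 and 19.09 kb. Its positions were -2.0, 2.99, 5.20 and 9.33 kb in control cells against 0.30, 5.47, 9.02 and 28.4 kb. BIRC6, a ubiquitin enzyme that inhibits apoptosis, led by 17.30 kb, GTF2F2, a subunit of TFIIF, by 15.69 kb, and AP2A2, a clathrin adaptor subunit, by 11.69 kb. AZIN1, the antizyme inhibitor of polyamine control, led by 15.22 kb, at 53.8 against 38.6 kb, after differences within 1 kb at the earlier times.

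**Figure D2:**
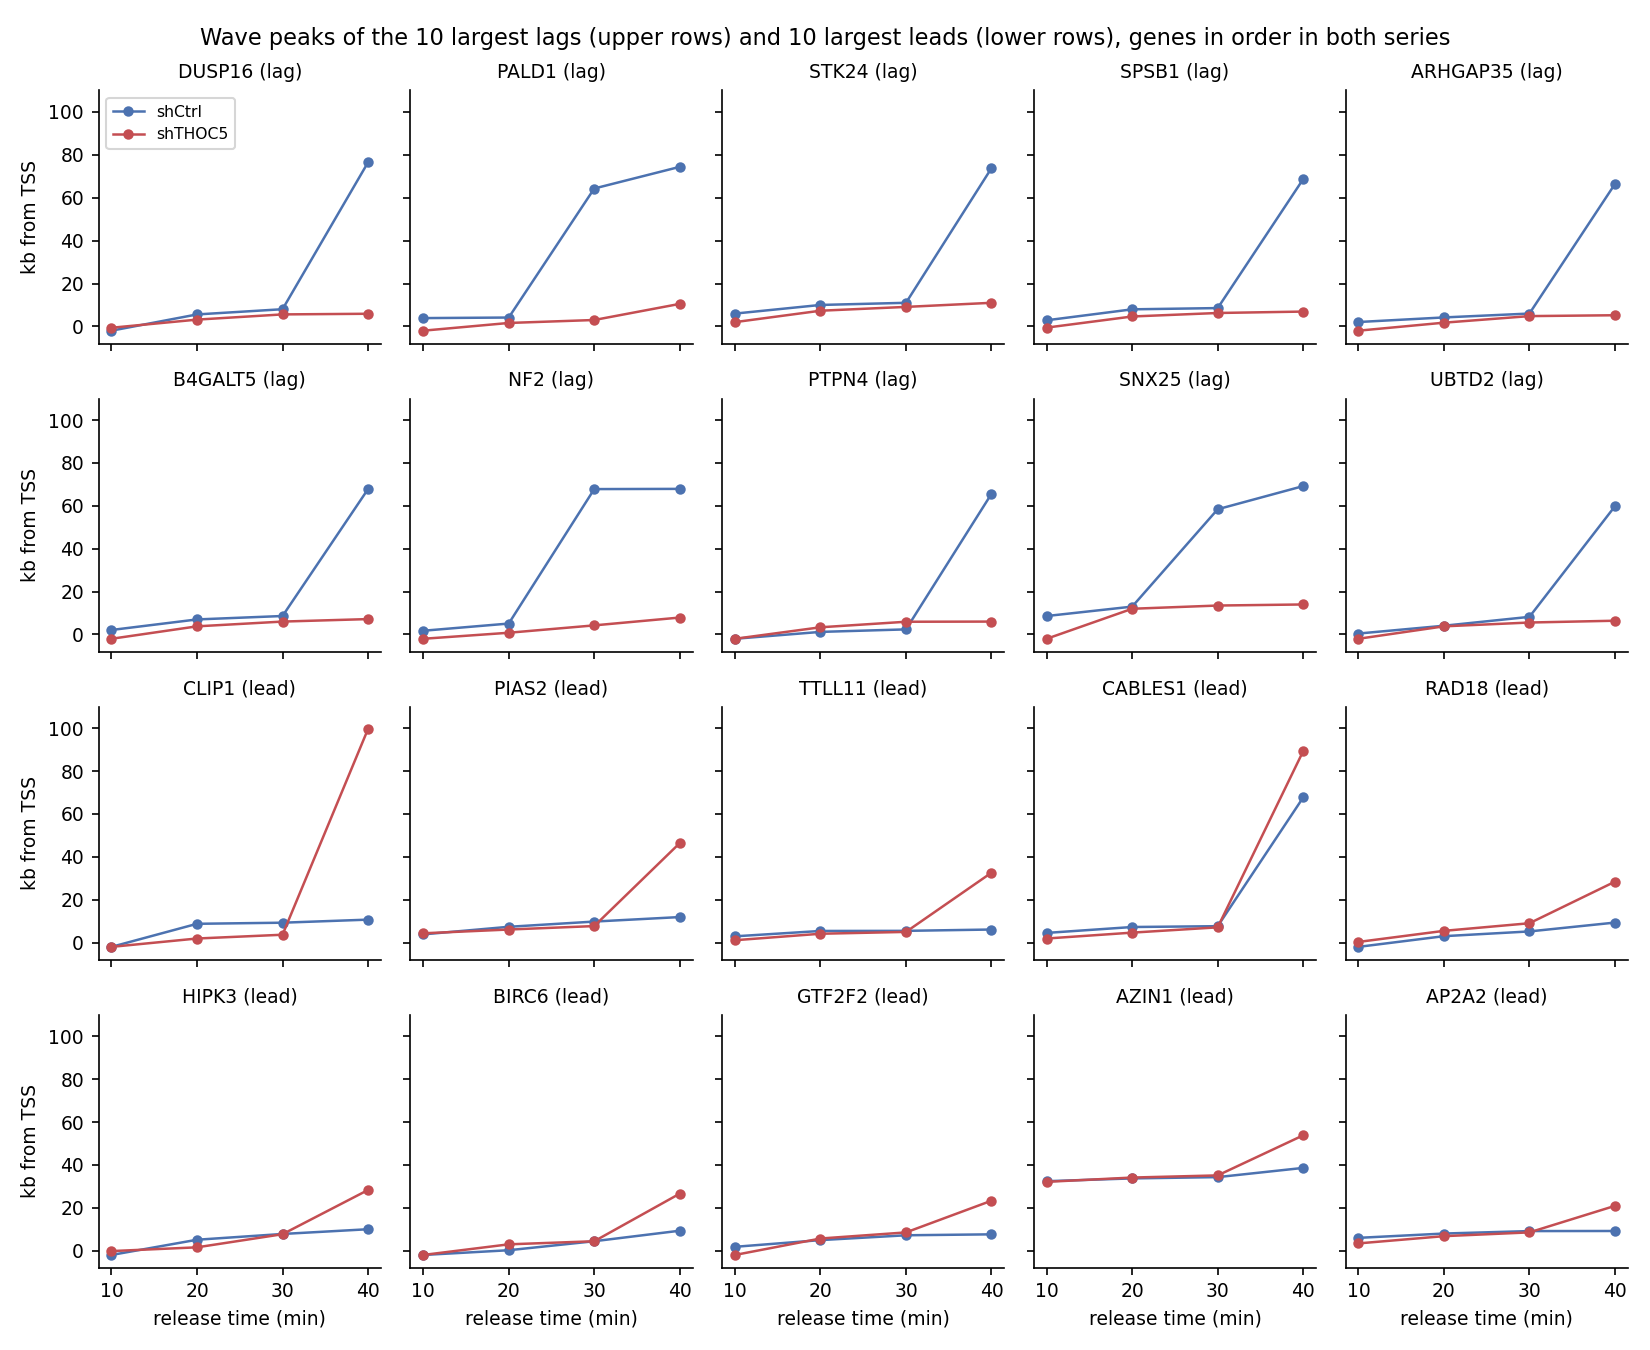
Wave peak (vertical axis, kb from the TSS) at 10, 20, 30 and 40 min after release (horizontal axis) in control cells (shCtrl, blue) and THOC5-depleted cells (shTHOC5, red) for the 10 largest lags and the 10 largest leads among the 311 genes in order in both series, 1 library per point. In the lagging genes the blue line rises to between 59.8 and 76.5 kb by 40 min while the red line stays at 14.0 kb or below, and in the leading genes the red line makes its largest step from 30 to 40 min.

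Without the condition on order the extremes were larger and their courses mostly out of order. AKAP12, a scaffold of protein kinase A, had the largest lag of all 1745 genes, with a difference of -103.85 kb. Its control wave peaks were called at 111, 11.6, 108 and 111 kb, the last in exon 4, against 112, 4.28, 6.31 and 7.64 kb after depletion. Other large differences were -101.59 kb in RMI2, a subunit of the complex that dissolves Holliday junctions, -90.24 kb in ITPK1, an inositol phosphate kinase, and -89.1 kb in PTPN14, a tyrosine phosphatase. In RMI2 the canonical transcript starts 95.8 kb inside the listed gene, and the far control wave peak lay 3.75 kb downstream of that inner start, while the position after depletion was -2.0 kb from the listed one. SCAMP1 had the largest lead, 107.49 kb. Its wave peak was called at -2.0 kb in 7 of the 8 libraries and at 105.49 kb in the 40-min library of THOC5-depleted cells. In SPATS2L, LAMC1, NDUFS4 and EPS15, which led by 106.37, 105.50, 101.45 and 92.97 kb, the control wave peak was called at 120, 102, 93.1 and 103 kb at 10 min and at 9.26, 8.50, 7.60 and 11 kb at 40 min. None of the genes named here was in order in both series.

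The wave peaks at the other release times come from other libraries and the rule did not use them, although its coverage minimum was set on a column for the whole series of 4 libraries. Among the 313 genes that lagged by over 5 kb at 40 min, THOC5-depleted cells were behind in 255 (81.5%) at 30 min, in 199 at 20 min and in 175 at 10 min, and ahead in 39, 53 and 30. All 1745 genes gave 1075 behind and 397 ahead at 30 min, 910 and 395 at 20 min, and 881 and 130 at 10 min. Over all 4592 listed genes 54.2% were behind and 27.4% ahead at 30 min, 48.8% and 26.0% at 20 min, and 45.9% and 20.8% at 10 min. The 168 genes that led by over 5 kb did not lead earlier as a group: 100 of them were behind at 30 min and 54 ahead, with a median of -1.986 kb, and at 10 min 93 were behind and 16 ahead. Behind at all 3 earlier times were 127 of the 313 lagging genes, and ahead at all 3 were 7 of the 168 leading genes. In the genes in order, a condition that does use the earlier times, 66 of 68 lagging genes and 8 of 13 leading genes were behind at 30 min. Over the 1745 genes the median difference at the 4 times, in order, was -0.062, -0.254, -1.147 and -0.471 kb, so it was largest at 30 min. From 30 to 40 min the median step was 0.499 kb in control cells against 1.52 kb after depletion over all 1745 genes, and 2.27 and 1.65 kb over the genes in order. In that interval 551 control wave peaks of the 1745 went back toward the TSS, against 209 after depletion, and the part of these backward steps in the smaller median at 40 min was not tested.

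**Figure D3:**
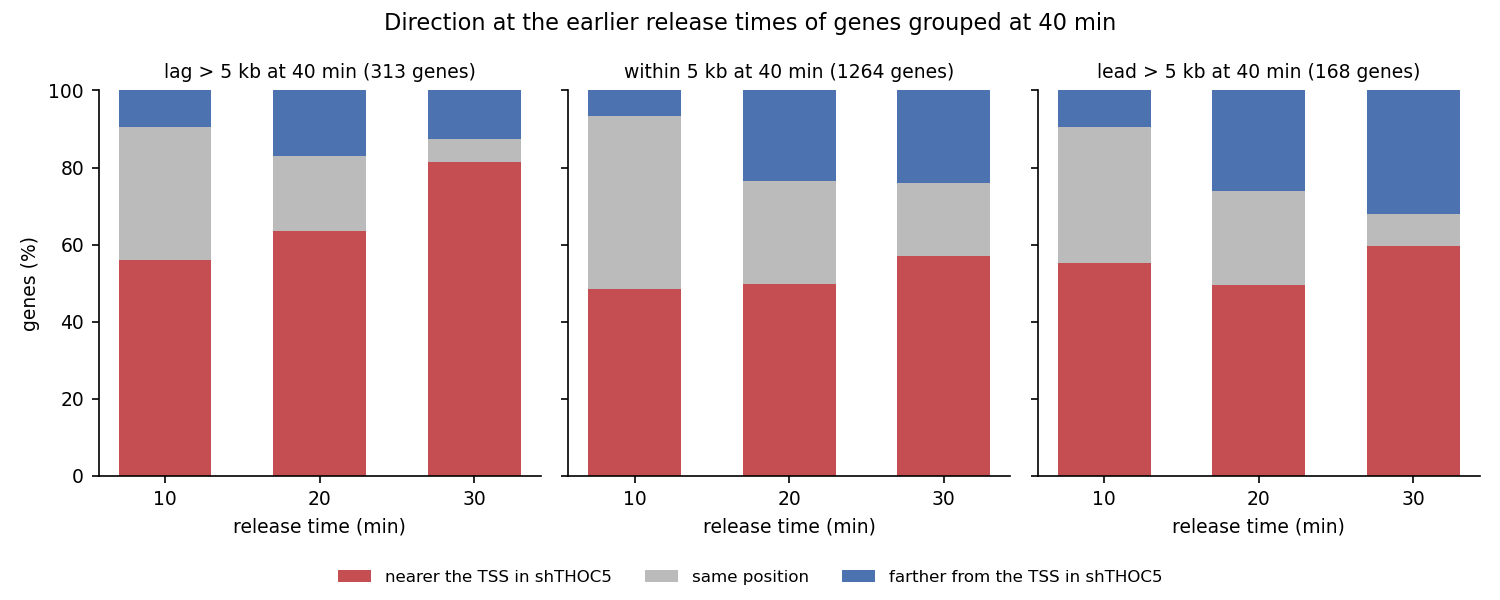
Bars give the percentage of genes (vertical axis) whose wave peak was nearer the TSS (red), at the same position (grey) or farther (blue) in THOC5-depleted than in control cells at 10, 20 and 30 min (horizontal axis), for genes that lagged by over 5 kb, stayed within 5 kb or led by over 5 kb at 40 min. At 30 min 81.5% of the lagging genes and 59.5% of the leading genes were nearer the TSS.

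How the 40-min difference went with the 10-min position was followed in both series. Genes whose control wave peak at 10 min was still at or upstream of the TSS, 776 of the 1745, had a median difference of 0.00 kb, with 359 behind and 223 ahead. In 281 genes with a 10-min position of 0 to 5 kb the median was -1.254 kb and 194 (69.0%) were behind. At 5 to 20 kb it was -0.881 kb in 211 genes, at 20 to 60 kb -0.75 kb in 214 and beyond 60 kb -0.894 kb in 263. The 0.00 kb of the first group came with the genes that had no called wave at 40 min: among 488 genes of that group called downstream of the TSS in both series, the median was -1.192 kb and 318 were behind. Leads were least frequent at 5 to 20 kb, where 43 genes lagged and 8 led by over 5 kb, and most frequent relative to lags beyond 20 kb, with 47 and 34 genes at 20 to 60 kb and 53 and 38 beyond. Positions beyond 60 kb at 10 min were often not kept, since the median 40-min position of those 263 genes was 24.3 kb in control cells. Ordered by the 10-min position of THOC5-depleted cells, where 1146 genes were at or upstream of the TSS, the medians were -0.254, -0.833, -0.782, -0.514 and -0.779 kb. The rank correlation of the 40-min difference with the 10-min position over the 1745 genes was -0.04 for the control position and 0.01 for that of THOC5-depleted cells.

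Gene width and coverage ordered the difference weakly. By width the median was -0.521 kb in 413 genes of 60 to 80 kb, -0.704 kb in 582 of 80 to 120 kb, -0.378 kb in 537 of 120 to 200 kb and -0.06 kb in 213 of 200 to 300 kb, and the share behind was 55.4%, 59.3%, 54.7% and 50.2%. The widest genes had 29 lags and 25 leads over 5 kb, against 69 and 32 in the narrowest. From the lowest to the highest quartile of coverage, averaged over the 2 tables, the median went from 0.00 to -0.403, -0.598 and -0.766 kb, and the share behind from 49.0% to 54.4%, 59.2% and 61.0%. Genes at equal positions were 83 of 437 in the lowest quartile and 35 of 436 in the highest. Among genes called downstream of the TSS in both series the 4 medians were close together, at -0.917, -1.047, -1.095 and -1.101 kb. Rank correlations were 0.03 for width and -0.04 for coverage over the 1745 genes. The ratio of the coverage in THOC5-depleted to that in control cells moved with the difference more than the coverage itself: in the quartile of genes whose coverage was lowest relative to control the median was -1.193 kb and 281 of 437 were behind, and in the quartile where it was highest the median was 0.00 kb, with 197 of 436 behind and 189 ahead. The rank correlation was 0.15 over all and 0.19 over the 311 genes in order. Coverage and positions come from the same libraries, and the part of coverage in the difference was not tested.

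**Figure D4:**
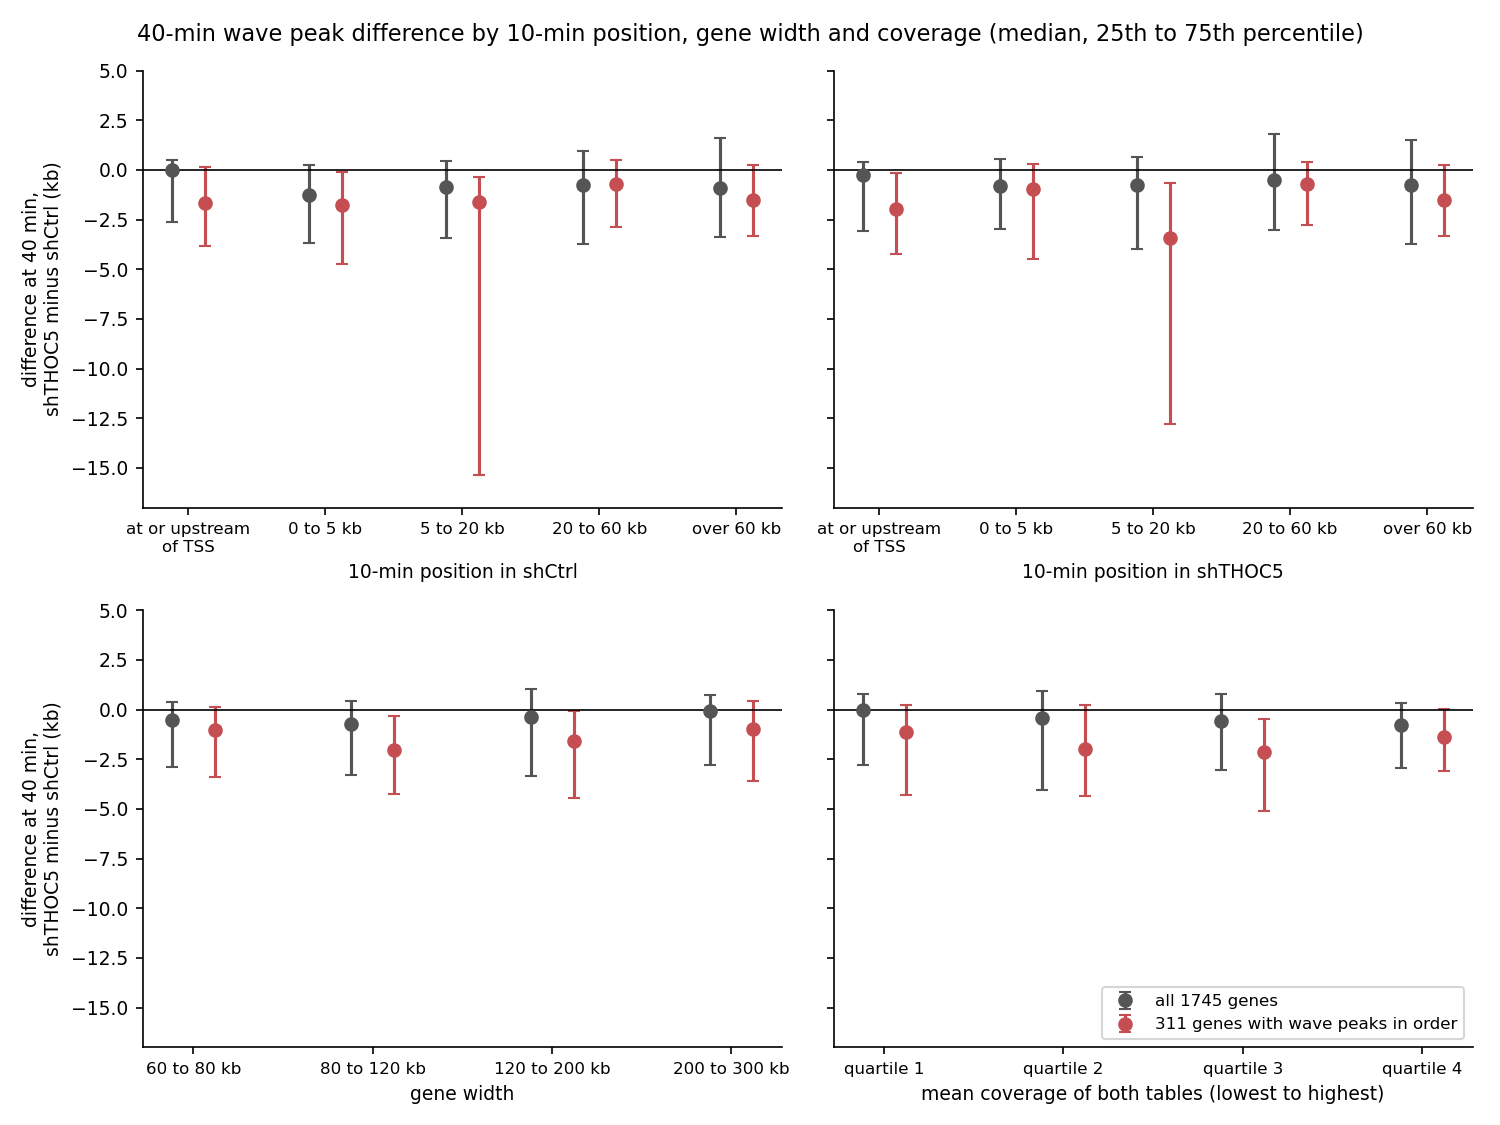
Points give the median and bars the 25th to 75th percentile over genes of the 40-min difference (vertical axis, shTHOC5 minus shCtrl, kb) in groups by the 10-min position in either series, by gene width and by quartile of coverage (horizontal axes), for all 1745 genes (grey) and the 311 genes in order (red). The grey medians lie between -1.254 and 0.00 kb, and the red medians are below 0 in every group.

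The listed TSS was not always the start of the gene's canonical transcript by annotation, and which start these cells used was not measured. In GENCODE release 44, where 1665 of the 1745 genes had the listed width, the transcript that Ensembl marks as canonical began within 1 kb of the listed start in 1292 genes and over 20 kb inside in 205 (12.3%). Among the 291 matched genes with both 40-min wave peaks over 20 kb out, 144 (49.5%) had such an inner start, against 16 of 861 with both wave peaks within 20 kb. The 861 were defined by wave peaks within 20 kb of the listed start, so this contrast follows in part from the grouping. Whether the far wave peaks come from inner starts was not tested. Counted from the canonical start, the median positions of those 144 genes were 9.64 kb in control cells against 8.51 kb after depletion, near the 8.13 and 6.97 kb of the 861. Of the 291 genes 119 in control cells and 123 after depletion had a wave peak 5 to 15 kb from the canonical start. MSH6, the mismatch repair protein, illustrates this: its wave peaks at 40 min lay 100 and 95.9 kb from the listed start, and 12.7 and 8.33 kb from the canonical one, which lies 87.6 kb inside. In SLC25A26, the mitochondrial carrier of S-adenosylmethionine, the same count gave 9.55 and 8.02 kb, and in ZNF131, a zinc finger protein, 9.36 and 7.66 kb. Another 106 of the 291 genes had the canonical start within 1 kb of the listed one, so an inner start does not describe them. Counted from the canonical start, the wave peaks of AFF1 lay at 79.7 and 76.9 kb and those of BCOR at 26.5 and 28.6 kb. Of 150 genes that were far in control and near in THOC5-depleted cells, 4 had a canonical start over 20 kb inside and 129 had it within 1 kb. In the opposite arrangement the counts were 3 and 51 of 63. Both groups were defined by a wave peak within 20 kb of the listed start in 1 series. Their low counts of inner starts are therefore not read as a result about the far wave peaks. In the 1292 genes with a canonical start within 1 kb, 737 (57.0%) were behind and 402 ahead, and the median was -0.56 kb.

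**Figure D5:**
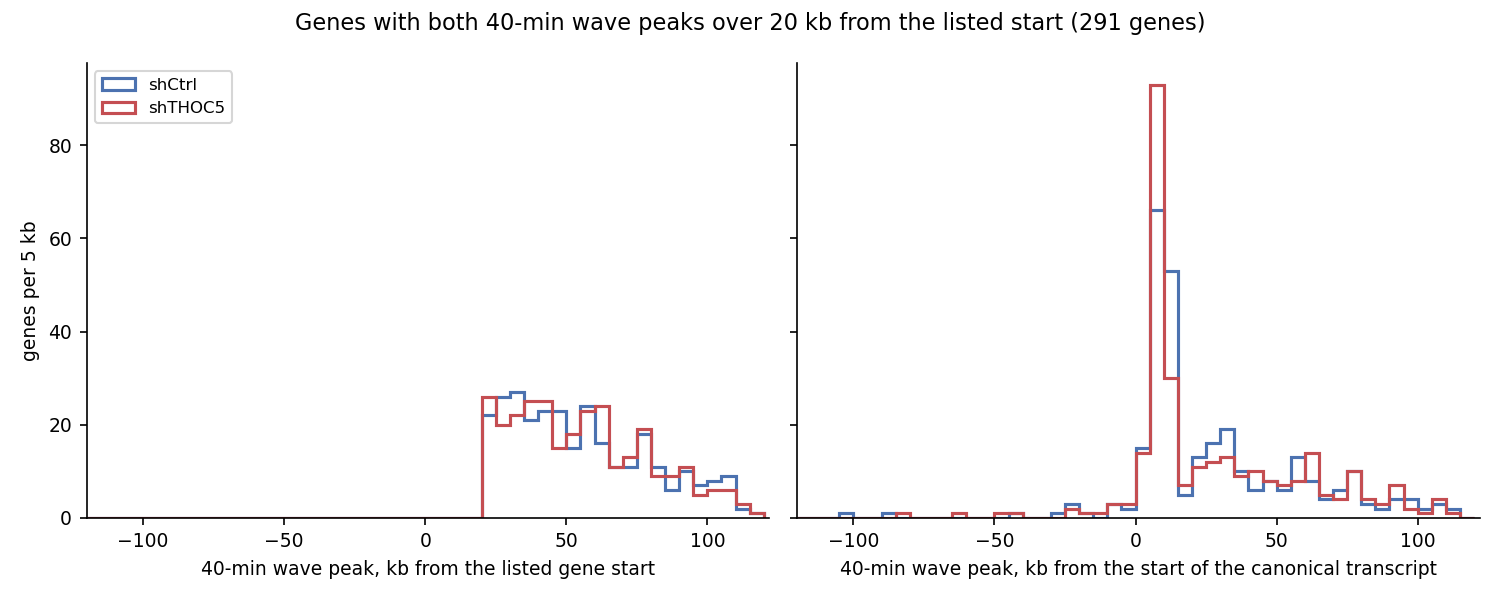
Number of genes per 5 kb (vertical axis) by the 40-min wave peak counted from the listed gene start (left) and from the start of the canonical transcript (right, kb), in control (shCtrl, blue) and THOC5-depleted cells (shTHOC5, red), for the 291 genes with both wave peaks over 20 kb from the listed start. On the left the counts fall off slowly from 20 kb, and on the right 119 control and 123 THOC5-depleted positions gather between 5 and 15 kb.

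Within the canonical transcript most wave peaks lay in introns. Of 1365 matched genes called downstream of the TSS in both series, the wave peak was in the first intron in 749 (54.9%) in control and 814 (59.6%) in THOC5-depleted cells, in a later intron in 541 and 475, and in an exon in 21 and 15. Where both positions were intronic, they lay in the same intron in 935 of 1270 genes. THOC5-depleted cells were in an earlier intron in 208 and in a later one in 127. In genes that lagged by over 5 kb the intron could only be the same (75 of 242) or earlier (167). In those that led it could only be the same (13 of 98) or later (85). The first intron held the control wave peak of 77 of the 300 matched lagging genes and that of THOC5-depleted cells in 184. Of 156 matched leading genes it held 71 and 31. These directions follow from the grouping and are not read as results. As a share of the gene's width, the median position was 10.7% in control cells against 8.59% after depletion over the 1430 genes downstream of the TSS in both. It was past the middle of the gene in 182 and 157 of them. Among features that the rule did not use, GC content of the first 20 kb went with the difference, with medians of 0.00, -0.344, -1.081 and -0.901 kb from the lowest to the highest quartile, and so did the length of the first intron, with 0.00, -0.492, -0.71 and -1.132 kb. Rank correlations were -0.10 and -0.09, and 0.01 for the number of exons. In the lowest quartiles of both features genes without a called wave were most frequent, with 68 and 64 genes at equal positions.

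Among the factors of transcription elongation, TREX and R-loop handling, of which 30 were listed and 27 belong to the 1745 genes, 19 were behind and 8 ahead, with a median of -0.567 kb beside -0.471 kb over all. Lags over 5 kb were found in RTF1 and RPRD1B. RTF1, which joins the PAF1 complex in elongation, stood at 9.88, 15, 18 and 56.8 kb in control and at 10.1, 11.6, 12.7 and 16.5 kb in THOC5-depleted cells, so that the series were equal within 1 kb at 10 min and then drew apart. CDC73, a subunit of the PAF1 complex, differed by -1.10 kb at 40 min. In the super elongation complex and its partners the differences were small for ELL (-1.04 kb), ELL2 (-0.91 kb), AFF4 (-1.39 kb), AFF1 (-2.76 kb) and MLLT1 (-0.57 kb), while MLLT3 led by 10.17 kb, with a control position of 0.854 kb.

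Of the kinases of the Pol II tail, CDK12 was at 5.88 and 5.55 kb, and CDK13 led by 11.72 kb, with its control wave peak at -2.0 kb at all 4 times. RPRD1B, RPRD1A and RPRD2, which bind that tail, differed by -12.80, -0.15 and -2.26 kb. TOP1, the topoisomerase that relaxes DNA in front of Pol II, was at 45.9 kb in control cells against 41.8 kb after depletion, after 11.2 and 8.65 kb at 30 min. TOP2B led by 15.14 kb with a control position that had been at 21.5 kb at 30 min and was at 8.41 kb at 40 min. XRN2, the exonuclease of transcription termination, led by 27.54 kb, at 33.8 against 6.25 kb. AQR, a helicase that acts on R-loops, differed by -0.13 kb, and THOC2, the scaffold of the THO complex itself, by 0.24 kb. The differences of SETD2, SCAF11, SCAF8, IWS1, DHX15 and PHF3 lay between -2.29 and 2.46 kb.

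The further gene groups are given by their counts beside 55.9% behind over all 1745 genes. Chromatin modifiers and remodellers had 46 of 67 genes behind (68.7%) and a median of -1.472 kb, with differences of -40.33 kb in KDM5B, a histone H3K4 demethylase, and -34.47 kb in YEATS2, a subunit of an acetyltransferase complex, among those in order, and a lead of 2.11 kb in BCOR, a corepressor. Among the ubiquitin ligases and deubiquitinases 61 of 96 were behind, with a median of -0.835 kb, a difference of -30.64 kb in ITCH, a ubiquitin ligase, and of -31.35 kb in USP24, a deubiquitinase. The same list held PIAS2, with its lead of 34.5 kb, and had 23 lags and 13 leads over 5 kb. Small GTPases and their regulators had 25 of 38 behind and a median of -1.336 kb, and besides ARHGAP35 its paralog ARHGAP5 had a large lag, with a difference of -44.69 kb. Cytoskeletal motors and actin regulators had 27 of 43 behind, with a median of -1.252 kb, a difference of -22.23 kb in CKAP5, a microtubule polymerase, and of -8.56 kb in VCL, which encodes the adhesion protein vinculin. This group also held CLIP1, with its lead of 88.89 kb, and had 2 lags and 3 leads over 20 kb and a mean of 1.001 kb. DNA replication, repair and cohesin genes and zinc finger transcription factors were the groups with more genes ahead than behind. The former had 17 of 48 behind, 21 ahead and a median of 0.00 kb, and 2 lags and 7 leads over 5 kb. The zinc finger factors had 15 of 32 behind and 17 ahead, with a median of 0.338 kb.

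Transcription and RNA processing machinery had 44 of 81 genes behind and 26 ahead, with a median of -0.283 kb. AGO2, the slicer of RNA interference, stood at 57.9 kb in control cells against 9.01 kb after depletion, after 10.2 and 8.16 kb at 30 min, and CREBBP, a histone acetyltransferase, at 38.9 and 9.19 kb after 8.87 and 8.42 kb. Protein kinases had 42 of 78 behind and 29 ahead, with a median of -0.135 kb. Leads over 5 kb outnumbered lags among them, 14 against 12, and the largest differences in genes in order included -52.29 kb in STK38L, a kinase of the NDR family, and 18.28 kb in HIPK3. Of 70 membrane trafficking and autophagy genes 40 were behind, with a median of -0.64 kb and a difference of -27.15 kb in ATG7, an enzyme of autophagosome formation. Solute carriers, of which 20 qualified, had 13 behind and a median of -0.596 kb, with a difference of -1.53 kb in SLC25A26. Among the genes in order, of which 75.2% were behind over all, the counts behind were 14 of 16 chromatin genes (87.5%) and 6 of 11 replication and repair genes (54.5%). They were 11 of 12 for small GTPases and regulators (91.7%), 16 of 19 for the machinery (84.2%) and 9 of 11 for elongation, TREX and R-loop factors. The ubiquitin group had 18 of 23, protein kinases 7 of 9 and cytoskeletal genes 7 of 9. Membrane trafficking had 8 of 12, zinc finger factors 3 of 5 and solute carriers 3 of 3.

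The classes of THOC5-dependent and independent genes that the study drew from cytoplasmic mRNA both had most genes behind at 40 min. Of the dependent genes with a control elongation rate 39 of 51 were behind, with a median of -1.951 kb, and of the independent genes 31 of 39, with a median of -1.962 kb. Lags over 20 kb numbered 6 in the former and 9 in the latter, and neither had a lead over 20 kb. Both classes were restricted in the study to genes that its filter on wave peaks kept, and 46 of the 51 and 35 of the 39 were in order in both series, so the 75.2% behind of the 311 genes in order is the nearer background. In the longer list of dependent genes, made without that filter, 96 of 163 were behind with a median of -0.698 kb, and in that of independent genes 22 of 32 with a median of -0.818 kb. The lists were made in the same study with the same depletion, so they are not independent of it. Of the genes that the study followed singly, ENAH, an actin regulator, stood at 7.27 kb in control cells against 5.19 kb after depletion, USP24 at 40.6 and 9.25 kb, and OSBPL3, a lipid-binding protein, at 8.44 and 10.9 kb. The control wave peaks of OSBPL3 were out of order, at 100, 5.09, 2.19 and 8.44 kb, and its differences at 10, 20 and 30 min were -95.88, 2.25 and 7.55 kb, while the difference of ENAH at 30 min was -1.47 kb.

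The 3 genes with the highest coverage were CROCC, CCDC200 and HNRNPC. CROCC held 73572 rpm in control cells against 79996 rpm after depletion of the 1000000 rpm listed. At all 4 times its wave peak stayed between 12.8 and 13.0 kb in control cells and between 12.9 and 13.5 kb after depletion, 169 kb in front of the canonical start. CCDC200, with 7519 and 4725 rpm, was called at 27.8, 27.7, 48.5 and 48.9 kb in control cells and at 53.8, 49.8, 29.0 and 28.0 kb in THOC5-depleted cells. A U2 snRNA gene is annotated within 1000 bp of the 40-min position of THOC5-depleted cells. HNRNPC, which encodes an hnRNP protein that binds nascent RNA, came next with 4075 and 2041 rpm. Its wave peak was in order after depletion, at 1.72, 4.41, 5.47 and 8.72 kb, and in control cells from 20 min on, at 6.21, 8.17 and 11 kb after 45.8 kb at 10 min, and its 40-min difference was -2.23 kb. At the limits of the rule, ANKS6 was kept with 100 rpm in THOC5-depleted cells, where USP12 missed it narrowly in control cells. ENSG00000269026 was kept with a control position of 71.0 kb in a gene of 71.5 kb, and SNED1 fell just outside, at 97.0 kb in a gene of 97.0 kb. At the far end of the window NMT1 was kept at 115 and 118 kb, and PLPP3 was left out at 120 kb in control cells with 74.6 kb in THOC5-depleted cells.

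Of the 4592 listed genes 2298 reached 100 rpm in both tables, 345 missed it in control cells only, 121 in THOC5-depleted cells only and 1828 in both, and 553 of the 2298 were left out because a 40-min wave peak lay past the gene or window end. The 1745 genes held 66.5% of the listed coverage in control and 65.1% in THOC5-depleted cells, at medians of 246 and 265 rpm. The tables give no read counts, so the depth behind a wave peak is unknown.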

How the data were processed

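DRB/TTchem-seq was performed in HEK293 cells, and the authors deposited, for each series of 4 release times, a table of 4592 genes with called wave peaks as whole positions in bp, gene widths, a filter mark and a coverage column. The wave peaks were called by the authors from depth-normalized coverage with a published pipeline. The coverage column is named for RPKM, but its deposited values sum to 1000000 and were read as RPM; how the libraries of a series were combined in it is not stated. The submitters' processing notes name GRCh38, minimap2, CASAVA 1.8.2, Bowtie2 2.3.4.1 and deepTools 2.0 without roles, and the aligner and annotation of these libraries are not given in the sources used here. The deposited elongation rates were not used.

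Tables were joined by gene identifier, and 2 kb was subtracted from each position. Genes needed 100 rpm in both tables and 40-min wave peaks short of the gene end and the window end, so wave peaks called at or upstream of the TSS were kept. Members, lists and cut-offs were chosen with earlier results of these data known. Named genes were the 10 largest lags and leads among genes in order in both series, the 5 largest of all, genes named in the study, the elongation and TREX list, the 3 with the highest coverage, up to 3 per list, and those at the limits; which canonical starts are quoted was chosen after their values were seen. Some genes and sequences so chosen are not reported here. Gene lists were written from general knowledge. Places, GC content and starts were taken from GENCODE release 44, which holds 1744 of the 1745 identifiers, 1665 of them at the listed width. Sequences were read from GRCh38 for genes outside chromosome 8. Correlations are Spearman's, across genes, which share libraries and are not replicates. With 1 library per condition and time no test was run. Functions were tested on simulated data. Python 3.11.15, numpy 2.4.6, pandas 2.3.3, scipy 1.17.1 and matplotlib 3.10.9 were used.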

Additional observations from a re-analysis of the deposited data

How the results depend on the processing

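A median or share counted as unchanged inside the 95% interval over genes of its reported value, a count within 1.5 times of it, and a rank correlation when it moved by no more than 0.1 with the same sign. The interval was -0.687 to -0.232 kb for the median and 53.5% to 58.2% for the share. Genes share libraries, so it does not measure the uncertainty of a difference between conditions. Of 58 recomputed values 16 were unchanged, 38 moved and 4, all rank correlations near 0, changed sign. No paired analysis was possible because with only 1 library in each condition at each time no fit has replicates to block, and no result comes from a test.

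The median difference (-0.471 kb in the report), the share of genes behind (55.9%), and the lags and leads over 5 kb (313 and 168) were -0.158 kb, 51.6%, 808 and 544 without a coverage minimum, and -0.798 kb, 60.9%, 170 and 89 with 200 rpm. With 40-min wave peaks downstream of the TSS in both tables the median was -1.063 kb and the share 64.5%. In genes with ordered wave peaks the values were -1.60 kb, 75.2%, 68 and 13. With a 10-min wave peak inside the gene and downstream of the TSS they were -0.732 kb, 60.9%, 103 and 58, and in the 80 genes that the authors marked in both tables -1.175 kb, 75%, 21 and 4. With the 30-min column for the same genes the median was -1.147 kb, the share 61.6% and the leads 79. The mean in place of the median was -2.193 kb. Limits of 2 and 20 kb gave 593 and 143 lags, and 289 and 71 leads. Among alternatives that were added after seeing the data, order at 20, 30 and 40 min alone gave -1.951 kb, 74.7%, 132 and 28, both wave peaks within 20 kb gave -0.847 kb, 66.0%, 73 and 22, and a canonical start within 1 kb moved none of the 4 values. Every median stayed below 0 and lags outnumbered leads in every setting. The counts fall in part because the settings keep fewer genes, and the cause of the other changes was not tested.

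The rank correlation with width (0.03) was -0.01 with 200 rpm, that with coverage (-0.04) was 0.04 with 200 rpm and 0.01 with wave peaks in order, and that with the control 10-min position (-0.04) was 0.04 with wave peaks downstream of the TSS. Reads per library are unknown, so the precision of a single wave peak cannot be given.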
